A study of Mus musculus with 2 samples.

Results

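The mucins and trefoil factors described here are 10 of the 55415 genes in the deposited tables: the transmembrane mucins Muc1, Muc3, Muc4, Muc13 and Muc20, the gel-forming mucins Muc6 and Muc5b, and the trefoil factors Tff1, Tff2 and Tff3. They were chosen by gene name, and each name matched 1 gene identifier. Transcripts were counted as unique molecular identifiers (UMIs) in fixed single cells from mouse liver that the labels call biliary epithelial cells, the cells that line the bile ducts. There are 2 libraries, 1 with the genotype label Sox9cKO, called Sox9-deficient in the series title, and 1 with the genotype label Sox9con, called its control; Sox9 encodes a transcription factor of bile duct cells. The alleles, any Cre driver, the age and sex of the mice and the number of mice in a library are not given in the sources used here.

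Mucins are long proteins whose serine- and threonine-rich stretches carry dense O-linked sugar chains. Transmembrane mucins form the glycocalyx on the luminal face of ducts and can signal through short cytoplasmic tails, whereas gel-forming mucins are secreted as polymers that make mucus. Trefoil factors are small disulphide-linked peptides secreted with mucus, and TFF2 is known as the partner of MUC6 in the mucus of gastric and duodenal glands. In the liver, mucus-making cells are known from the peribiliary glands and large ducts, whereas MUC1 is known from many epithelia.

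With 1 library per genotype there is no replicate of either genotype and no test of a difference between them. Levels are UMIs scaled to 1000000 UMIs of the biliary cells of a library (CPM), ratios are the Sox9cKO-labelled library over the Sox9con-labelled library on a log2 scale, and every interval is a 95% interval for counting error alone. The first barcoding round placed the cells in 5 wells for the Sox9cKO-labelled library (A11, A12, B1, B2 and B3) and 4 for the Sox9con-labelled library (D9 to D12). Wells show the spread within a library and are not treated as biological replicates. Which mice each well holds is not given in the sources used here. Levels are not divided by transcript length, so they compare libraries, wells and cell clusters for 1 gene, and not 1 gene with another.

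After filtering, 6208 of 6362 cells were kept, and 5994 of them (2610 Sox9cKO-labelled and 3384 Sox9con-labelled) formed the biliary fraction, the cells left once an endothelial-like cluster of 196 cells and a mesenchymal-like cluster of 18 cells were set aside. The biliary fraction held 14389433 and 12229688 UMIs, with a median of 5124 and 3226 UMIs per cell, so a cell of the Sox9cKO-labelled library was read 1.59 times as deeply. Of 14 biliary markers, 12 were above 50 CPM in both libraries. The libraries shared 0 cell barcodes. No cluster had a biliary marker among its 10 leading genes, and clusters 1 and 2 each had 1 marker of another class there, so member levels are also given by cluster number and, for the ratios, over all kept cells. Sox9 itself, counted as a check of the labels, was at 122 CPM in the Sox9cKO-labelled library and 145 CPM in the Sox9con-labelled library (log2 ratio -0.25, -0.35 to -0.15), and it was lower in only 10 of the 20 pairs made by setting each well of the first library against each well of the second. The counts of Sox9 thus do not separate the libraries well by well, and whether the deleted part of the gene gives UMIs was not tested.

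Of the 10 genes, 7 had at least 200 UMIs over both libraries: Muc1 with 6359, Muc4 with 3135, Tff2 with 2218, Muc3 with 1493, Muc6 with 1170, Muc13 with 713 and Muc20 with 570. Among these 7, Muc3 and Muc6 were at least 2-fold lower and Muc20 was at least 2-fold higher in the Sox9cKO-labelled library. Among all 9356 genes with at least 200 UMIs, 1.78% were at least 2-fold lower, 2.29% at least 2-fold higher and 4.07% past 2-fold in either direction. The median log2 ratio of the 7 genes was -0.34, and that of all 9356 genes was -0.07, with 95% of genes between -0.92 and 0.94. The wells of the 2 libraries did not overlap for 2 of the 7 genes, Muc3 below and Muc20 above. Over all genes, every Sox9cKO-labelled well lay below every Sox9con-labelled well for 8.30% and above for 7.60%, and the share for either direction was 15.9%. Both libraries were also split over the same 8 sublibraries, the pools into which the cells were divided at the end. Within them Muc1, Muc3 and Muc13 were lower in the Sox9cKO-labelled library in 8 of 8, Tff2 in 7 and Muc6 in 6, whereas Muc20 was higher in 8 of 8 and Muc4 in 7. Sublibraries are splits of the same cells and not replicates, and the share over all genes is not given here.

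**Figure D1:**
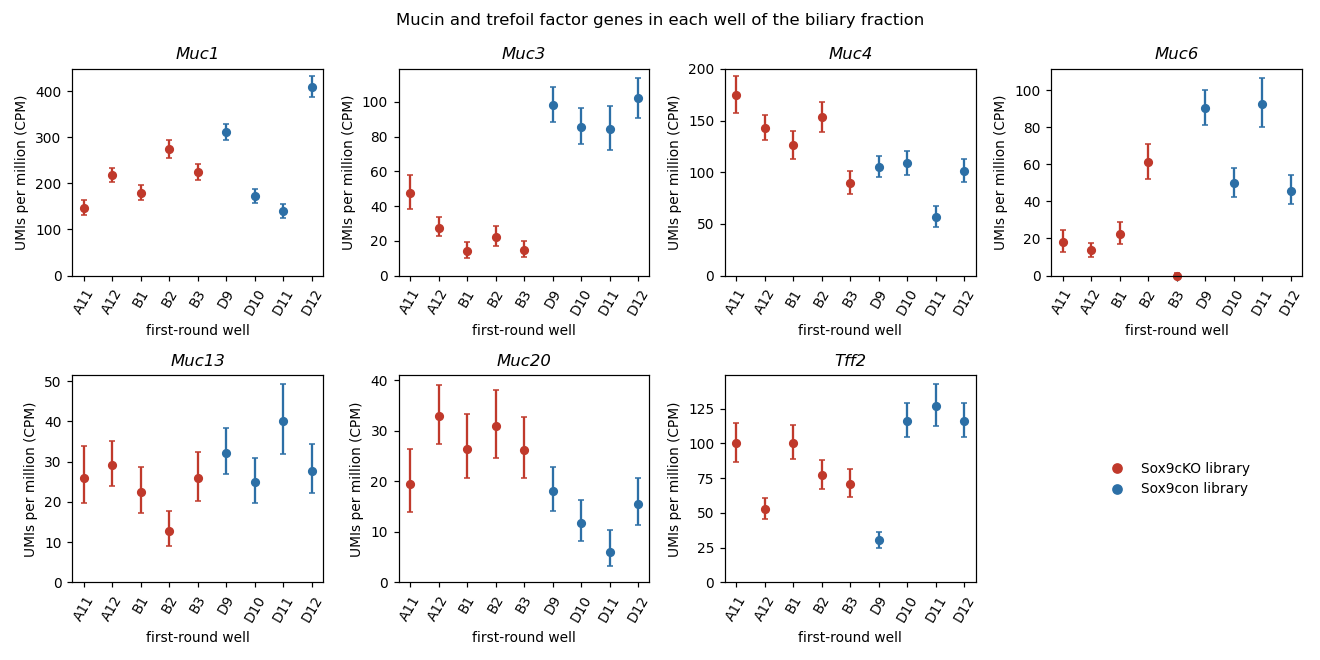
Level of the 7 genes with at least 200 UMIs in each first-round well of the biliary fraction, in CPM; points are wells and bars are exact Poisson 95% intervals. Muc3 lies lower in all 5 Sox9cKO-labelled wells than in any Sox9con-labelled well and Muc20 lies higher, while the wells of the other 5 genes overlap.

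The stretch of 250 bases before the start site is shown for the genes on which the results turn: Muc4, which shared cells with Muc3 and with Muc20 more often than independence gives, those 2 genes, and Muc6, which had the most uneven distribution over cells. The sequences are RefSeq's on GRCm38.p6, an older build than the one the counts use, at chr5:137166047-137166296 on the minus strand for Muc3, chr16:32735636-32735885 on the plus strand for Muc4, chr16:32797436-32797685 on the minus strand for Muc20 and chr7:141655394-141655643 on the minus strand for Muc6. Capitals mark the matches to 6 short motifs searched on both strands.
Muc3: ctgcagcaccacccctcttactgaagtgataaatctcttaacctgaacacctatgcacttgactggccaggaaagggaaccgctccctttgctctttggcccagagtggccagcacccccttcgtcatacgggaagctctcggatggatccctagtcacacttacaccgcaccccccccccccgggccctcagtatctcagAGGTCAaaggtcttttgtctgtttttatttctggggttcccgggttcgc
Muc4: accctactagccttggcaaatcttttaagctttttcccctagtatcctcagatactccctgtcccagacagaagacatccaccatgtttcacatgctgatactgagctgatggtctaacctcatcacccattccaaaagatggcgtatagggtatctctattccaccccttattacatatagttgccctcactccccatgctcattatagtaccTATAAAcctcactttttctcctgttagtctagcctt
Muc20: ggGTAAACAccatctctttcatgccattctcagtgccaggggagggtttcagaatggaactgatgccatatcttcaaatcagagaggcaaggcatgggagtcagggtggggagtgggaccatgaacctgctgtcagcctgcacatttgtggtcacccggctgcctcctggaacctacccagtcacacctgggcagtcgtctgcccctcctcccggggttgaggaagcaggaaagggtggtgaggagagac
Muc6: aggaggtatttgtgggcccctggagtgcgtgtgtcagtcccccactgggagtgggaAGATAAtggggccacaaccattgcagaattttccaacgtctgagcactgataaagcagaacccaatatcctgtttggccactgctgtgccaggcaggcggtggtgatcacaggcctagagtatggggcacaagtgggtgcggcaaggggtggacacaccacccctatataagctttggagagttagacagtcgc
Each of these 4 stretches held 1 match, and no motif was found in more than 1 of them. Muc3 held AGGTCA, a motif of nuclear receptors, which 14.0% of all 32851 promoter windows of this length hold. Muc4 held the TATA box TATAAA, found in 12.4% of windows, with its first base 36 bases before the start. Muc20 held the FOXA motif TGTTTAC on the other strand, found in 3.17% of windows, and Muc6 held the GATA motif AGATAA, found in 9.99%. The SOX family motif ACAAAG, found in 16.5% of windows, and the HNF1 motif GTTAAT, found in 6.43%, matched none of the 4. For Muc4 and Muc20, a short stretch just after the start lay near the opening of GENCODE transcripts of the same gene, and for Muc3 and Muc6 it did not. Such a match does not place the first base of a transcript, so all 4 are RefSeq's start sites only. RefSeq's table gave a promoter for 6 of the 10 genes.

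In the GENCODE annotation of the same older build, Muc4 and Muc20 are neighbours on chromosome 16 on opposite strands, and the 2 genes overlap. Whether UMIs were assigned by strand is not given in the sources used here, so reads of the overlap cannot be told apart. Muc3 on chromosome 5 lies next to Muc3a, a related gene with which it may share reads; Muc3a had 3 and 26 UMIs. Muc6 and Muc5b lie in a row with Muc2 and Muc5ac on chromosome 7, and Tff1, Tff2 and Tff3 are neighbours on chromosome 17.

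Muc1, the cell-surface mucin of most simple epithelia, was the most widely detected of the 10 genes. It had 3060 UMIs in the Sox9cKO-labelled library and 3299 in the Sox9con-labelled library, which is 213 CPM (205 to 220) against 270 CPM (261 to 279). The Sox9cKO-labelled wells A11, A12, B1, B2 and B3 held 147, 217, 180, 274 and 225 CPM of Muc1, and D9, D10, D11 and D12 held 311, 173, 139 and 410 CPM. The Sox9con-labelled wells thus fell into 2 high and 2 low ones, and the range of the other library lay within theirs. The log2 ratio for Muc1 was -0.34 (-0.41 to -0.27), and 11 of 20 well pairs were lower in the Sox9cKO-labelled library, so the difference between the libraries was smaller than the spread of wells within 1 library. Once each cell was thinned to 2000 UMIs, 31.6% of 2471 Sox9cKO-labelled cells and 36.3% of 2815 Sox9con-labelled cells had a Muc1 UMI, against 3.77% and 5.71% of endothelial-like cells. Without thinning the shares of biliary cells were 54.0% and 48.4%, the reverse order, in libraries of unequal depth. Thinning left out 139 and 569 cells of less than 2000 UMIs.

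Muc1 UMIs were spread over many cells: the 10 highest cells held 3.10% and 2.94% of them, and the highest count in a cell was 11 in each library. Muc1 was found in each of the clusters of at least 50 biliary cells. Its level ran from 125 CPM in cluster 1, led by Hp, Serpina1b and Fst, to 404 CPM in cluster 7, led by Ly6m, Aspa and Trpm3. Endothelial-like cells were at 21.8 CPM. In cluster 7 the libraries did not differ in Muc1 beyond counting error (419 and 394 CPM, log2 ratio 0.09, -0.14 to 0.32). In clusters 2 and 10 Muc1 was lower in the Sox9cKO-labelled library beyond counting error, with log2 ratios of -0.34 and -0.38. Only 11 and 13 of 20 well pairs were lower there. Clusters 4 and 6, with 69 and 78 Sox9cKO-labelled cells, were also lower (-0.92 and -0.46, with 15 and 12 of 20 well pairs lower). In cluster 9 the libraries did not differ in Muc1 beyond counting error (0.12, -0.32 to 0.56).

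Muc3, a transmembrane mucin best known from the brush border of intestinal cells, was the lowest of the 7 genes in its ratio. The Sox9cKO-labelled library had 351 Muc3 UMIs (24.4 CPM, 21.9 to 27.1) and the Sox9con-labelled library 1142 (93.4 CPM, 88.0 to 99.0). Wells A11, A12, B1, B2 and B3 held 47.4, 27.7, 14.3, 22.3 and 14.8 CPM, whereas D9, D10, D11 and D12 held 98.0, 85.7, 84.2 and 102 CPM. All 5 Sox9cKO-labelled wells were lower than all 4 Sox9con-labelled wells, and the second set varied only 1.21-fold from lowest to highest. The log2 ratio was -1.94 (-2.11 to -1.76), a 3.82-fold lower level, and over all kept cells it was -1.93. At equal depth 2.27% (1.72 to 2.93) of Sox9cKO-labelled and 8.45% (7.45 to 9.54) of Sox9con-labelled cells had a Muc3 UMI. By well these shares ran from 1.86% to 2.73% and from 7.41% to 9.92%, with no overlap. Endothelial-like cells, which should lack it, had a Muc3 UMI in 0 of 53 and 3 of 70 thinned cells, and none of them held more than 1.

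The Muc3 UMIs of the Sox9cKO-labelled library sat in few cells. The highest cell held 63 and the next 34, 27 and 22, and the 10 highest cells held 61.3% of all Muc3 UMIs in that library. In the Sox9con-labelled library the highest cell held 26, and the 10 highest held 15%. Without the highest cell of each library the log2 ratio of Muc3 was -2.19, a comparison added after the values had been seen.

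Muc4, a large transmembrane mucin that binds the receptor ERBB2, went the other way. It had 1953 UMIs (136 CPM, 130 to 142) in the Sox9cKO-labelled library and 1182 (96.7 CPM, 91.2 to 102) in the Sox9con-labelled library. Wells A11, A12, B1, B2 and B3 held 174, 143, 126, 153 and 90.0 CPM of Muc4, and D9, D10, D11 and D12 held 105, 109, 56.7 and 101 CPM. B3 lay below 3 of the 4 Sox9con-labelled wells, and D11 lay far below the rest of its library. The log2 ratio of Muc4 was 0.49 (0.38 to 0.60), short of 2-fold, and 17 of 20 well pairs were higher in the Sox9cKO-labelled library. Thinned to equal depth, 9.43% (8.31 to 10.7) and 7.39% (6.45 to 8.42) of cells had a Muc4 UMI, against 0 of 53 and 0 of 70 endothelial-like cells.

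Muc20, a small transmembrane mucin known to bind the hepatocyte growth factor receptor MET, was the highest of the 7 genes in its ratio. It had 402 UMIs (27.9 CPM, 25.3 to 30.8) against 168 (13.7 CPM, 11.7 to 16.0). Wells A11, A12, B1, B2 and B3 held 19.4, 32.9, 26.4, 30.9 and 26.2 CPM of Muc20, and D9, D10, D11 and D12 held 18.2, 11.8, 6.04 and 15.5 CPM. No wells overlapped, although A11, the lowest of the first set, was close to D9, the highest of the second. Its log2 ratio was 1.02 (0.76 to 1.29), just past 2-fold, and it was short of 2-fold without A12 (0.93), B2 (0.98), D10 (0.95) or D11 (0.86). Equal-depth shares of cells with a Muc20 UMI were 4.53% (3.75 to 5.43) and 2.38% (1.85 to 3.01), and in endothelial-like cells 0 of 53 and 3 of 70. The Sox9con-labelled share was thus no higher than that of endothelial-like cells, yet Muc20 differed between biliary clusters of that library, from 0.94 CPM in cluster 4 to 37.6 CPM (28.4 to 48.9) in cluster 10.

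Muc13, a transmembrane mucin of intestinal and other epithelia, was low in both libraries. The Sox9cKO-labelled library held 339 UMIs (23.6 CPM) and the other 374 (30.6 CPM), with wells from 12.8 to 29.2 and from 24.8 to 40.0 CPM that overlapped. The log2 ratio of Muc13 was -0.38 (-0.59 to -0.16), and 16 of 20 well pairs were lower in the Sox9cKO-labelled library. At equal depth 4.13% and 6.0% of biliary cells had a Muc13 UMI, and the endothelial-like shares of 3.77% (0.46 to 13) and 2.86% (0.35 to 9.94) were not separable from them. Without thinning the shares were 11% and 10.3% of biliary cells and 6.10% and 5.26% of endothelial-like cells, whose median depth was 2352 and 2328 UMIs.

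Tff2 was the trefoil factor with most UMIs, 1110 (77.1 CPM, 72.7 to 81.8) and 1108 (90.6 CPM, 85.3 to 96.1). Wells A11, A12, B1, B2 and B3 held 100.0, 52.7, 101, 76.9 and 71.0 CPM of Tff2, and D9, D10, D11 and D12 held 30.2, 116, 127 and 116 CPM. The single well D9 was the lowest of all 9 while the other 3 Sox9con-labelled wells were the highest. The log2 ratio of -0.23 (-0.35 to -0.11) was well inside that spread, and it was -0.62 without D9. The equal-depth shares of cells with a Tff2 UMI, 12.6% and 12.3%, had overlapping intervals, and both stood above the endothelial-like shares of 1.89% and 2.86%.

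The remaining genes were near the limit of detection. Tff3, a trefoil factor of goblet cells, had 48 and 69 UMIs (3.34 and 5.64 CPM), and wells from 2.20 to 3.90 and from 2.56 to 8.57 CPM that overlapped; 43 of its 117 UMIs were in cluster 7. Tff1, a trefoil factor of gastric surface cells, had 9 and 5 UMIs. Muc5b, a gel-forming mucin of airways and large ducts, had a UMI in 0 of 2610 Sox9cKO-labelled cells, which by the limit of 3 counts allows a share of up to 0.115% of cells with a UMI at this depth, and in 1 of 3384 Sox9con-labelled cells.

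Muc6, the gel-forming mucin of gastric and duodenal glands, had the most uneven distribution over cells. Its 323 UMIs in the Sox9cKO-labelled library (22.4 CPM, 20.1 to 25) were in 17 cells, and its 847 in the Sox9con-labelled library (69.3 CPM, 64.7 to 74.1) were in 52 cells. A single Sox9con-labelled cell held 305 Muc6 UMIs, 3.88% of all its UMIs, and the next held 68, 59 and 52. The highest Sox9cKO-labelled cells held 152, 60, 48 and 37, and the fifth held 9. The 10 highest cells held 97.8% and 76.9% of the Muc6 UMIs of their libraries, against about 3% for Muc1. The equal-depth shares, 0.486% and 1.35%, were at or near those of endothelial-like cells (1 of 53 and 0 of 70), which had no cell with more than 1 Muc6 UMI.

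**Figure D2:**
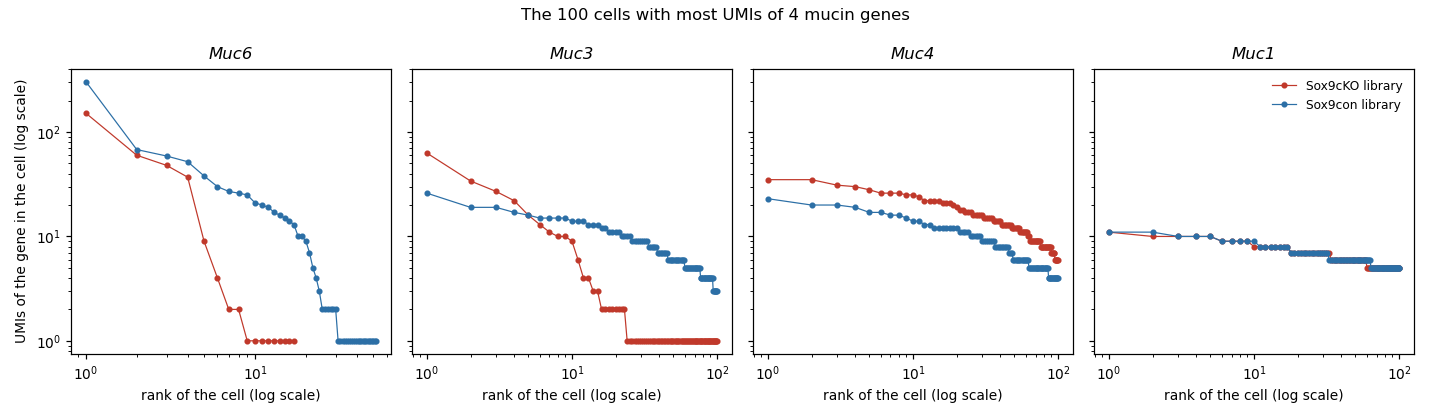
UMIs of Muc6, Muc3, Muc4 and Muc1 in the 100 cells with most of them in each library, ranked from the highest; both axes are logarithmic. The Muc6 curves start at 152 and 305 UMIs and drop to 1 within 52 cells, whereas the Muc1 curves start at 11 UMIs in both libraries.

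Few cells carried Muc6, and how far its ratio turned on the cells drawn was not tested. The wells A11, A12, B1, B2 and B3 held 18.0, 13.6, 22.4, 61.0 and 0 CPM of Muc6, and D9, D10, D11 and D12 held 90.3, 49.7, 92.5 and 45.8 CPM. B2 lay above D10 and D12, and 18 of 20 well pairs were lower in the Sox9cKO-labelled library. The log2 ratio was -1.62 (-1.81 to -1.44), and it ran from -2.40 without B2 to -1.30 without B3. That interval treats UMIs as independent, which UMIs from 1 cell are not. Counting cells in place of UMIs, 4 of 2610 Sox9cKO-labelled cells (0.153%, 0.0418 to 0.392) and 19 of 3384 Sox9con-labelled cells (0.561%, 0.338 to 0.875) held 10 or more Muc6 UMIs. These 23 cells held 92.0% and 92.7% of the Muc6 UMIs of their libraries and came from 4 wells each; in the Sox9con-labelled library the lowest of them held 10 UMIs and the highest cell below the threshold held 9.

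All 23 Muc6-rich cells fell in cluster 10, led by Bcl11a, Slc9a4 and Capn13, although neither Muc6 nor any of the other 9 genes was used for the clustering. Cluster 10, with 705 cells, held 96.7% of all Muc6 UMIs and 11.7% of all UMIs. Against the other 682 cells of cluster 10, the 23 cells were set side by side for the related gene lists; the threshold of 10 UMIs was chosen after the values had been seen, so these are descriptions. Agr2, a disulphide isomerase of mucus-secreting cells, was 30.5-fold higher (20.8 to 46.7) and had a UMI in 18 of the 23 cells, 4 Sox9cKO-labelled and 14 Sox9con-labelled. Only 4.69% of the other cells had an Agr2 UMI. Creb3l4, a secretory-pathway transcription factor, was 20.6-fold higher (7.5 to 70.1) and Ern2, the unfolded protein sensor of mucous epithelia, 10.6-fold higher (4.83 to 23.4). Gkn3, a gastric gland gene, had 11 UMIs in 3 of the 23 cells and none in the other 682. With the limit of 3 UMIs that a count of 0 allows taken for those 682 cells together, Gkn3 was 84.1-fold higher. That value leaves out the counting error of the 11 UMIs, and the interval of the fold starts lower, at 57.5, with no upper end.

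Of the other genes listed for gastric and duodenal glands, some were higher in the Muc6-rich cells and others were not. Pgc, which encodes pepsinogen C, was 4.37-fold higher (2.54 to 7.24), and Pigr, the receptor that carries IgA into bile, was 2.86-fold higher (2.39 to 3.42). Ctse (0.96 to 2.51), Aqp5 (0.928 to 6.16), Pdx1 (0.318 to 2.39) and Dmbt1 (0.889 to 1) had fold intervals that included 1. Tff2 was 3.8-fold higher (2.42 to 5.81) with a UMI in 6 of the 23 cells. Galnt7, an enzyme that adds O-linked sugars, was 3.13-fold higher. Lower levels were found for Ano1, a chloride channel, at 0.134 times that of the rest of the cluster (0.0876 to 0.197), and for Muc4 at 0.228 times (0.0732 to 0.532). Sox9cKO-labelled cells were 4 of the 23 and 356 of the other 682, and Pgc and, in cluster 10, Tff2 were themselves lower in that library; the part of this mix in the folds was not tested. The 23 cells had a median of 5195 UMIs against 4212 in the rest of cluster 10.

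The 3 mucins of uneven distribution peaked in 2 clusters. Muc3 and Muc4 were highest in cluster 7, at 551 and 1223 CPM. Cluster 7 had 296 cells and 5.82% of all UMIs, but it held 58.3% of Muc3 UMIs and 61.8% of Muc4 UMIs. For both genes cluster 10 came second, at 84.9 CPM for Muc3 and 159 CPM for Muc4, and the lowest clusters were cluster 1 for Muc3 (3.66 CPM) and cluster 4, led by Rhoj, Apoc1 and Rnd1, for Muc4 (4.09 CPM). Muc20 was highest in cluster 10 (40.9 CPM), cluster 7 (40.3 CPM) and cluster 2 (38.5 CPM), which did not differ beyond counting error, and lowest in cluster 1 (0.84 CPM).

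Tff2 peaked elsewhere. Cluster 2, led by Msln and Car4 among other genes, held 49.9% of Tff2 UMIs and 22.4% of all UMIs, at 181 CPM, and cluster 0, led by Slit3, Ces1c and Slc34a2, came next at 99.7 CPM. Its lowest biliary cluster was cluster 4 at 10.8 CPM, near the 10.1 CPM of endothelial-like cells. Muc13 ran from 16.6 CPM in cluster 1 to 63.3 CPM (47.6 to 82.6) in cluster 9, led by Gm7912, Tll2 and Mmp25. Clusters 0 and 1 were almost entirely Sox9cKO-labelled (681 of 685 and 539 of 540 cells), and clusters 4 and 6 mostly Sox9con-labelled (912 of 981 and 1093 of 1171 cells; cluster 6 was led by Ly6a, Cd14 and Kcnn4). For such clusters the library and the cell type cannot be told apart. Clusters 2, 7 and 10 held both libraries in number.

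**Figure D3:**
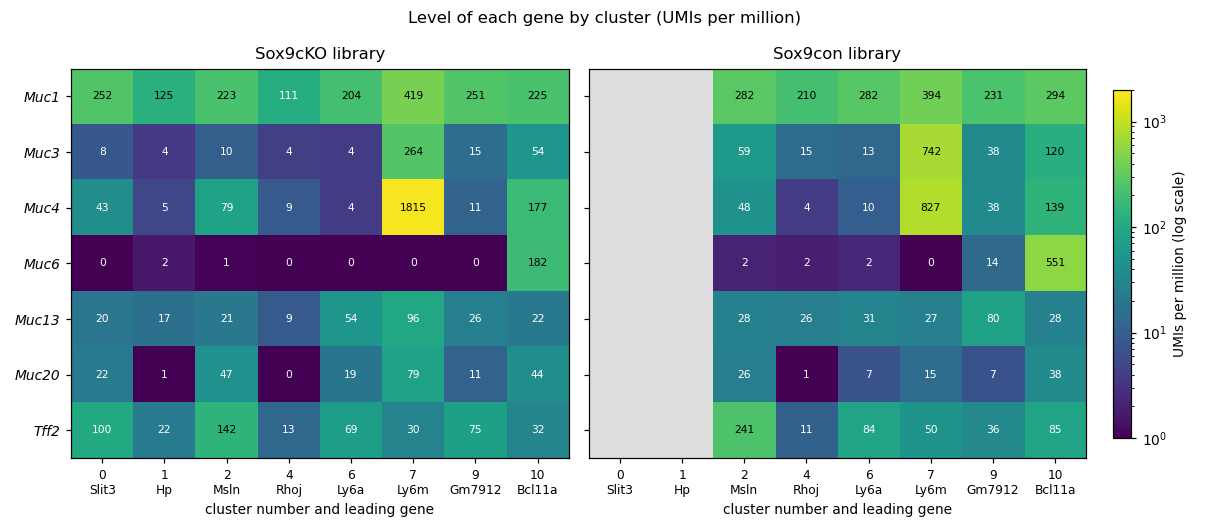
Level of the 7 genes in the clusters with at least 50 biliary cells, by library, in CPM; colour is on a log scale, values under 1 take the lowest colour and grey marks clusters with fewer than 50 cells of that library. Muc3 and Muc4 peak in cluster 7, Muc6 in cluster 10 and Tff2 in cluster 2 in both libraries.

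Within cluster 7 the libraries differed in opposite directions for Muc4 and Muc3. Muc4 was at 1815 CPM in the 104 Sox9cKO-labelled cells and 827 CPM in the 192 Sox9con-labelled cells (log2 ratio 1.13, 1.0 to 1.27), whereas Muc3 was at 264 and 742 CPM (-1.49, -1.74 to -1.24). A Muc4 UMI was seen in 95.2% and 70.8% of the cluster's cells, and a Muc3 UMI in 14.4% and 66.7%. For Muc4 the wells A11, A12, B1, B2 and B3 held 2081, 1855, 2021, 2244 and 1037 CPM, and D9, D10, D11 and D12 held 1100, 770.2, 475 and 850.4 CPM. B3 was the only Sox9cKO-labelled well below a Sox9con-labelled one, D9, and 19 of 20 well pairs were higher in the Sox9cKO-labelled library. For Muc3 the same wells held 670.2, 222, 135, 346 and 23.0 CPM against 794, 582, 734 and 888 CPM. A11 was the only Sox9cKO-labelled well above a Sox9con-labelled one, and a single cell of A11 held 63 Muc3 UMIs.

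Muc20 and Muc13 were also higher in the Sox9cKO-labelled cells of cluster 7. Muc20 was at 78.7 CPM against 14.7 CPM (log2 ratio 2.37, 1.54 to 3.39; 19 of 20 well pairs higher), and Muc13 at 96.0 against 27.3 CPM (1.79, 1.13 to 2.54; 17 of 20 well pairs higher). Both rest on few UMIs, 50 and 14 for Muc20 and 61 and 26 for Muc13. In cluster 9 Muc13 went the other way (26.2 against 80.3 CPM, log2 ratio -1.57, -3.01 to -0.46; 18 of 20 well pairs lower), from 7 and 47 UMIs. In cluster 2, Muc3 was again lower (10.02 against 59.3 CPM, log2 ratio -2.55, 0 of 20 well pairs higher) and Muc20 higher (46.8 against 25.9 CPM, 0.85, 20 of 20 well pairs higher). Tff2 was lower in cluster 2 (142 against 241 CPM, log2 ratio -0.77) and cluster 10 (32.0 against 85.3 CPM, -1.40), with 15 and 17 of 20 well pairs lower, but higher in cluster 9 (74.9 against 35.9 CPM, 1.04, 0.10 to 2.02; 15 of 20 well pairs higher). In cluster 10 Muc6 was at 182 against 551 CPM, a log2 ratio of -1.59, like its ratio over all biliary cells.

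**Figure D4:**
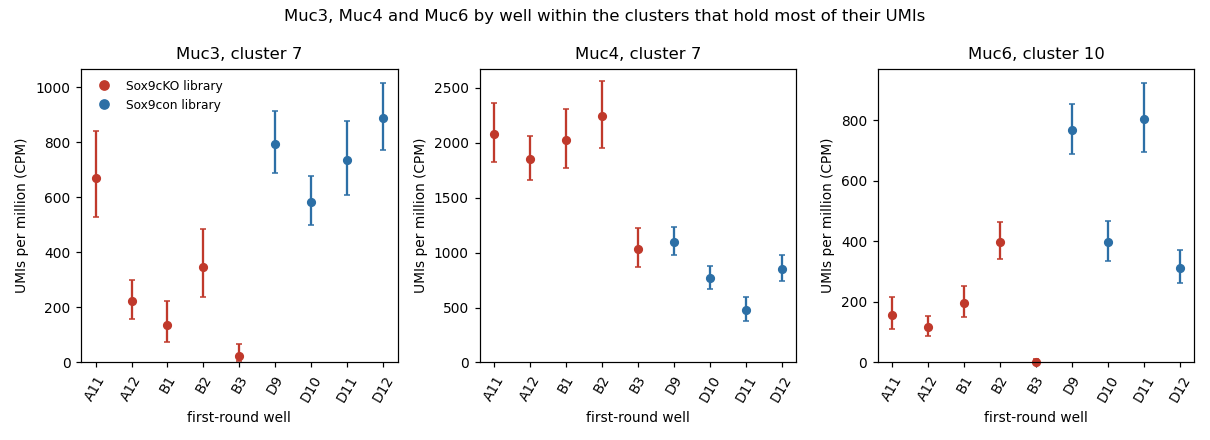
Muc3 and Muc4 in cluster 7 and Muc6 in cluster 10 by first-round well, in CPM with exact Poisson 95% intervals. In cluster 7 Muc3 is lower and Muc4 higher in most Sox9cKO-labelled wells, with A11 within the range of the other library for Muc3 and B3 for Muc4.

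The make-up of cluster 7 differed between libraries when the clustering was made finer. At Leiden resolution 1.0 its cells went to 2 clusters, which took 79 and 217 cells from cluster 7. The first, of 86 cells, was led by Ltf, Duoxa2 and Anxa10, and all 86 were Sox9cKO-labelled. The second, of 220 cells, was led by Ly6m, Muc3 and Aspa, with 26 Sox9cKO-labelled and 194 Sox9con-labelled cells. In the first, Muc4 was at 1783 CPM and Muc3 at 11.7 CPM. In the second, Muc3 was at 1002 CPM in the 26 Sox9cKO-labelled cells and 738 CPM in the 194 others, a log2 ratio of 0.44 (0.19 to 0.69) that is opposite in direction to the one for cluster 7 as a whole. The 26 cells held 163 Muc3 UMIs, and 1 cell alone held 63 of them. The interval treats UMIs as independent, which those of 1 cell are not. Because the ratio without that cell was not tested, no direction of Muc3 in this cluster is read from it. Muc4 in the second stayed higher in the Sox9cKO-labelled cells, at 1727 against 822 CPM (1.07, 0.87 to 1.27). Muc13 and Muc20 there did not differ beyond counting error, with log2 ratios of 0.43 (-1.13 to 1.75) and 0.72 (-1.31 to 2.42) from 6 and 26 and from 4 and 14 UMIs. In the cluster of 86 cells they were at 113 and 97.7 CPM. Whether the cluster of 86 cells is a cell type or a feature of that 1 library cannot be told apart.

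Cells with 10 or more UMIs were counted for Muc4 and Muc3 in the same way as for Muc6. Muc4-rich cells numbered 63 in the Sox9cKO-labelled library and 29 in the other, with 10, 18, 13, 15 and 7 in A11, A12, B1, B2 and B3 and 15, 7, 0 and 7 in D9, D10, D11 and D12. Muc3-rich cells numbered 9 and 25. Of these, 74 of 92 Muc4-rich and 30 of 34 Muc3-rich cells were in cluster 7. The threshold is in raw UMIs, the Sox9cKO-labelled library was read more deeply, and Muc4-rich cells had a median of 7050 UMIs against 4558 in the rest of cluster 7; the part of depth in these numbers was not tested. Many cells lay close to the threshold: 70 and 56 held 5 to 9 Muc4 UMIs, and 2 and 51 held 5 to 9 Muc3 UMIs.

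The Muc4-rich and Muc3-rich cells differed in what else they carried. Ltf, which encodes lactoferrin, was 3.55-fold higher (2.70 to 4.78) in the 92 Muc4-rich cells of all clusters than in the rest of cluster 7, and it had a UMI in 37 of the 63 Sox9cKO-labelled cells and 0 of the 29 others. Ctse, a gastric aspartic protease, and Anxa10, an annexin of gastric epithelium, were 2.43-fold and 2.26-fold higher, and Muc13 and Muc20 2.09-fold and 1.97-fold higher. Among the other gland genes compared, Dmbt1 and Pigr were 1.34-fold and 1.19-fold higher. Aqp5 was lower, at 0.397 times (0.128 to 0.954), and the intervals of Pgc and Pdx1 included 1. Muc1 was 1.43-fold higher, whereas Muc3, Tff2 and Tff3 were lower, at 0.617, 0.483 and 0.304 times. Of the Muc4-rich cells 63 of 92 were Sox9cKO-labelled, against 55 of 222 in the rest of cluster 7, and Ltf, Ctse and, in cluster 7, Muc13 and Muc20 were themselves higher in that library; the part of this mix in the folds was not tested. A Muc20 UMI was seen in 20 of the 63 and 2 of the 29 Muc4-rich cells. The 34 Muc3-rich cells had Tff3 at 3.81-fold (2.03 to 7.38), the granule-docking gene Sytl2 at 2.67-fold and Gcnt3, which makes the core branches of mucin sugars, at 2.26-fold the level of the rest of cluster 7, and Ltf at 0.114 times it (0.0356 to 0.262). Among the mucous secretory genes compared, Klf4 was also higher in the Muc3-rich cells, 1.73-fold (1.01 to 2.89), and Rab27b was lower, at 0.675 times (0.457 to 0.966). Of the other gland genes compared in the Muc3-rich cells, Dmbt1 was higher, 1.38-fold (1.33 to 1.43), and Pigr lower, at 0.890 times (0.813 to 0.972). The intervals of Ctse (0.671 to 1.79) and Anxa10 (0.486 to 1.02) included 1. Sox9con-labelled cells were 25 of the 34 and 169 of the other 266, and Gcnt3 and Ltf themselves differed between the libraries. The part of this mix in the folds was not tested. Muc3-rich and Muc4-rich at once were 3 Sox9cKO-labelled and 8 Sox9con-labelled cells. Of the Sox9cKO-labelled Muc4-rich cells, 9 of 63 had a Muc3 UMI, whereas 28 of 29 Sox9con-labelled ones did. No Muc6-rich cell was Muc3-rich or Muc4-rich; of the 23, 1 had a Muc3 UMI and 4 had a Muc4 UMI.

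Pairs of the 10 genes in the same cell were counted at 2000 UMIs per cell and set against the number expected if the 2 genes were independent within each well. Of 45 pairs, 13 had at least 5 expected cells in each library. Muc3 and Muc4 were found together most: 19 Sox9cKO-labelled cells had both against 5.25 expected, a ratio of 3.62 (2.18 to 5.65), and 94 Sox9con-labelled cells had both against 17.7 expected, a ratio of 5.32 (4.30 to 6.51). The observed number exceeded the expected one in 5 of 5 and 4 of 4 wells. Muc4 was seen in 33.9% of Muc3-positive and 8.86% of Muc3-negative Sox9cKO-labelled cells, and in 39.5% and 4.42% of Sox9con-labelled cells.

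Muc4 and Muc20 also shared cells, with 23 observed against 10.7 expected (ratio 2.16, 1.37 to 3.24) and 12 against 5.18 (2.31, 1.20 to 4.04), above expectation in 4 of 5 and 3 of 4 wells; the 2 genes overlap on opposite strands, as stated above. None of the other 11 pairs with at least 5 expected cells reached 1.5 times its expected number in both libraries. Muc1 and Muc4 came closest, at 1.44 and 1.29, above expectation in every well of each library. Muc4 and Muc13 differed between libraries, at 2.06 (1.26 to 3.18) and 0.72 (0.33 to 1.37), with no test of that difference.

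None of the 13 pairs was found at 0.667 times its expected number or less in both libraries. Muc4 and Tff2 came closest, at 0.85 (0.55 to 1.26) and 0.64 (0.37 to 1.04), with fewer cells than expected in 4 of 5 and 4 of 4 wells. Tff2 and Muc1 were at 1.0 and 1.05, so their cells were shared about as often as independence gives. Muc6 had too few cells for the rule: with Muc4 it shared 1 and 3 cells against 1.29 and 2.77 expected, and with Tff2 1 and 6 against 1.60 and 4.75.

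**Figure D5:**
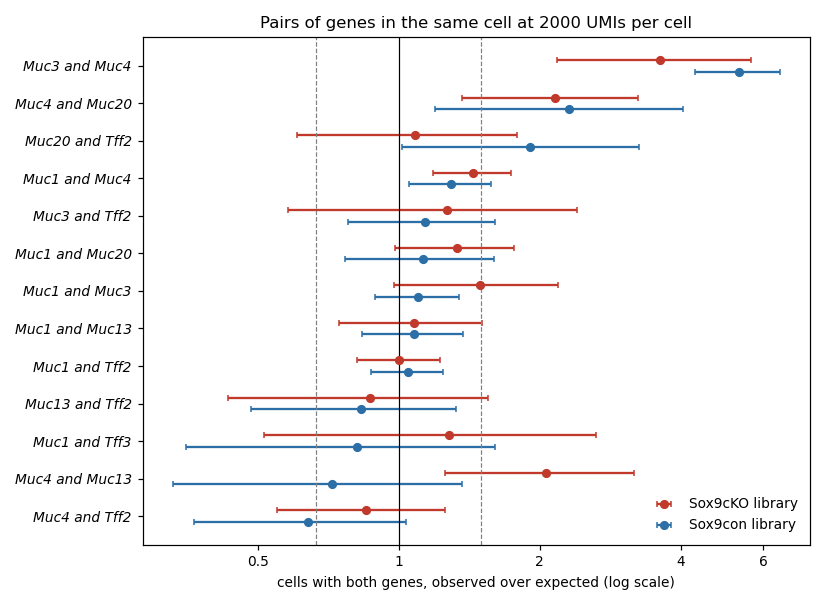
Cells with both genes of a pair, observed over expected at independence within wells, for the 13 pairs with enough expected cells; points are libraries, bars are exact Poisson 95% intervals, the axis is logarithmic and dashed lines mark 1.5 times and its inverse. Muc3 with Muc4 stands at 3.62 and 5.32 and Muc4 with Muc20 at 2.16 and 2.31, to the right of the line in both libraries.

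Most of that sharing lay between clusters. With the expected number formed within wells and clusters, the ratio for Muc3 and Muc4 was 1.49 (0.90 to 2.32) and 1.3 (1.05 to 1.59), and for Muc4 and Muc20 1.11 (0.70 to 1.67) and 1.39 (0.72 to 2.43), so neither pair passed 1.5 times. Without the 5% of cells with the highest Scrublet scores, the ratio for Muc3 and Muc4 was 3.85 and 5.41, as large as before, although the expected number in the Sox9cKO-labelled library was then 4.94 cells and under the minimum. Cells with 3 or more of the 10 genes numbered 66 of 2471 (2.67%, 1.41% at independence) and 100 of 2815 (3.55%, 2.08% at independence).

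The genes most like each member in pattern were sought among 7922 genes by the correlation of log UMI counts over thinned cells, 2471 and 2815 cells that share their library and depth. Ly6m, a Ly6 family surface protein gene and the leading gene of cluster 7, was the only gene with r of at least 0.2 with Muc3 in both libraries (0.32 and 0.28). For Muc4, 13 genes reached it, led by Gsto1, a glutathione transferase (0.40 and 0.37), Dmbt1, a secreted mucosal scavenger protein (0.37 and 0.38), and the receptor gene Adgrg7 (0.33 and 0.39). No gene reached 0.2 with Muc1, Muc13, Muc20 or Tff2.

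Other mucin genes were few. Of 16 further mucin and mucin-like genes listed, 13 were in the tables and 4 had at least 200 UMIs, with 0 at least 2-fold higher, 1 lower and a median log2 ratio of -0.40, beside -0.07 over all genes. The gene past 2-fold was Muc2, the main gel-forming mucin of the intestine, at 10.2 against 22.8 CPM (-1.16), with wells from 8.09 to 12.8 and 11.2 to 42.5 CPM that overlapped. The mucin-like surface genes Cd24a, Cd164 and Podxl had ratios of -0.66, -0.15 and 0.34.

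The enzymes that build mucin sugars were mostly alike in the libraries. Of 27 listed, 18 had at least 200 UMIs, 1 was at least 2-fold higher and 1 lower, with a median of 0.04. St6galnac2, a sialyltransferase, was higher (14.8 against 5.72 CPM, log2 ratio 1.37, 0.97 to 1.78; the symbol names more than 1 entry of the tables and the one with most UMIs was used), and Gcnt3 was lower (8.34 against 21.5 CPM, -1.36, -1.69 to -1.05). The sialyltransferase St3gal1 had a ratio of 0.56 and C1galt1c1, the chaperone of the core 1 galactosyltransferase, one of -0.78. Of 21 genes of mucous cell secretion, 10 had at least 200 UMIs, and none was 2-fold apart (median -0.05). Creb3l1 (0.78), Sytl2 (0.58), Rab27b (-0.42) and Foxa2 (-0.65) were its extremes.

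Among 15 gastric and duodenal gland genes, 7 had at least 200 UMIs, 2 were at least 2-fold higher and 1 lower, with a median of -0.23. Ltf was at 17.6 against 1.06 CPM (log2 ratio 4.0, 3.25 to 4.98), with 253 and 13 UMIs and wells from 7.09 to 21.1 and from 0.256 to 1.98 CPM. Ctse was at 40.3 against 14.5 CPM (1.48, 1.23 to 1.73), and the water channel gene Aqp5 at 4.59 against 12.9 CPM (-1.49, -1.93 to -1.07), while Pigr had a ratio of -0.56. Of 12 names listed as signalling partners of mucins and trefoil factors, 11 were in the tables and 8 had at least 200 UMIs. Of these, 1 was at least 2-fold higher and 0 lower, with a median of 0.02. Egfr, the epidermal growth factor receptor, was at 948 against 454 CPM (1.06, 1.02 to 1.11), with wells from 905 to 1043 and from 415 to 475 CPM. Lgals3, a galectin that binds MUC1, was at 362 against 724 CPM, just short of 2-fold lower, F2rl1 had a ratio of 0.34 and Erbb3 one of -0.21.

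Markers of biliary and other cell types were measured beside the mucins. The 14 biliary markers summed to 9355 CPM in the Sox9cKO-labelled library and 15585 CPM in the other, with wells from 8317 to 10599 and from 11858 to 19153 CPM. The 12 hepatocyte markers summed to 1252 and 956 CPM (wells from 1031 to 1385 and from 878 to 1030), and the 10 macrophage and myeloid markers to 123 and 73.0 CPM (wells from 116 to 131 and from 62.8 to 89.3). For these 3 lists the wells of the libraries did not overlap. The summed level of 7 intestinal goblet cell markers was 94.9 and 103 CPM, with 1 marker at 0 in each library and wells from 78.5 to 113 and from 96.2 to 118 CPM. The 7 pancreatic acinar markers summed to 27.1 and 26.7 CPM, with 1 and 3 of them at 0 and wells from 9.65 to 85.5 and from 14.1 to 41.8 CPM. Their part in the mucin levels was not tested.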

How the data were processed

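Fixed cells received their barcodes in rounds of splitting and pooling, and cDNA was primed with random hexamers and oligo(dT), per the labels' protocols. The deposited matrices hold UMI counts per gene and cell; GRCm39 is the build per the submitters' processing notes (mg39 per the gene table). The deposited cell tables also hold a rescaled transcript signal per cell, per the file headers, which was not used. Aligner, annotation and cell calling are not given in the sources used here. Cells with at least 500 genes, 1000 UMIs and at most 15% mitochondrial UMIs were kept. Scrublet marked 12 of 6220 cells (0.193%), so it did not work as a doublet caller. Cells were clustered with scanpy 1.11.5 (2000 variable genes, 30 components, 15 neighbours, Leiden resolution 0.5) without the 10 genes and Sox9. Counts were summed per library and well; ratios used a prior of 0.5 counts, with exact Poisson, conditional binomial and Clopper-Pearson 95% intervals. PCR copies and cells of 1 library are not independent samples, so no p-value was computed. Genes named besides the 10 were the 2 highest and 2 lowest of each related list, up to 3 correlated genes with r of at least 0.2, and up to 3 leading genes per cluster, of which 1 is not reported here; genes of the cells rich in 1 mucin were named after their values were seen. The members and lists were chosen with earlier results of these data known. Fold calls were tested on simulated UMI sums drawn independently, without the unevenness over cells seen for Muc6 and Muc3. The pair ratio was tested on simulated cells. Alternatives covered cell filters, scaling (edgeR 4.0.16 TMM, DESeq2 1.42.0 size factors), thinning, wells and clustering.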

Additional observations from a re-analysis of the deposited data

Results flagged for a closer look

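In 2 of the 14 sets of wells compared (7 genes in each library), 1 well stood far from the rest of its library. Chance gives this in about 1 of 20 sets if the sets are independent. These 14 sets share the same wells, so that rate is no reference for them. Muc4 in well D11 was at 56.7 CPM, while the other 3 Sox9con-labelled wells lay between 101 and 109 CPM. D11 was also the only well with 0 cells holding 10 or more Muc4 UMIs, and without it the log2 ratio of Muc4 was 0.37 in place of 0.49. Tff2 in well D9 was at 30.2 CPM, while the other 3 lay between 116 and 127 CPM, and without D9 the log2 ratio of Tff2 was -0.62 in place of -0.23. Wells are parts of 1 library, so these are unevenness within a library. Which mice each well holds is not given in the sources used here, and what sets D9 and D11 apart was not tested.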

How the results depend on the processing

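No paired analysis was possible because each genotype has 1 library. Each of the 7 genes kept the sign of its log2 ratio under the 16 other settings tried for it, with ranges of -0.51 to -0.07 for Muc1, -2.22 to -1.54 for Muc3, 0.37 to 0.92 for Muc4, -2.40 to -1.30 for Muc6, -0.51 to -0.22 for Muc13, 0.86 to 1.29 for Muc20 and -0.62 to -0.07 for Tff2. Muc3 and Muc6 stayed at least 2-fold apart in 16 of 16 and Muc20 in 11. The highest ratio of Muc4, 0.92, came from averaging over cells in place of summing UMIs, and the stricter cell filter gave 0.90 for Muc4 and -1.54 for Muc3. Without the cell with most UMIs in each library, a choice made after seeing the data, Muc6 was at -1.90.

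Over all genes, a minimum of 20 UMIs gave 634 genes at least 2-fold higher and 747 lower, and a minimum of 1 UMI gave 3888 and 4260, since more genes of few UMIs were then included. With 1 well left out at a time the number lower ran from 114 (without D11) to 386 (without D9), and the cause was not tested. With a minimum of 20 UMIs, other mucins had 1 gene higher and 2 lower, O-glycan enzymes 2 higher and 2 lower, and 2 were lower among mucous secretory genes, 2 among gland genes and 1 among signalling partners.

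Of the 2 pairs found together, 0 remained past the rule at 1000 UMIs per cell, without the 5% highest Scrublet scores, without the 5% of cells with most UMIs, or within wells and clusters, and 1 with expected numbers over the whole library. In all but the within-cluster setting, an expected number under 5 cells in a library ended the call: the ratio of Muc3 and Muc4 stayed between 2.88 and 6.64. At Leiden resolution 1.0 the cluster with the highest level held 7.11% of Muc1, 29.1% of Muc4, 8.73% of Muc20 and 17.2% of Tff2 UMIs, in smaller clusters. Muc5b, Tff1 and Tff3 had 1, 14 and 117 UMIs, under the minimum of 200; low expression and limited depth cannot be told apart for them.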
